A study of Mus musculus with 12 samples.

Results

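The guanylate-binding proteins (Gbp) were followed in spleen and duodenum of mice whose lymphotoxin beta receptor (LTbR) had been engaged by an antibody. The family was taken as the genes of a fixed name list, Gbp1, Gbp2, Gbp3, Gbp5, Gbp6, Gbp7, Gbp8, Gbp9, Gbp10 and Gbp11, and all 10 had a row among the 23329 rows of the count tables. All mice were wild type C57BL/6J, an inbred laboratory strain, aged 2 months. They had received AC H6, an agonist antibody to LTbR, or an isotype control antibody, at 100 ul of 1 mg/ml, and tissue was taken after 24 hours. The 4 groups were spleen isotype, spleen AC H6, duodenum isotype and duodenum AC H6, with 3 libraries each. Whether the 3 libraries of a group stem from 3 different animals is not stated, so a p-value here reflects the variation among these libraries, which may be technical.

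Gbps are large GTPases of the dynamin superfamily. They are best known as products of cells stimulated with interferon gamma. They assemble on the vacuoles of intracellular parasites and on bacteria, together with the immunity-related GTPases, a related interferon-inducible family, and with the help of the autophagy proteins that conjugate Atg8. At such membranes they promote killing of the microbe and activation of inflammasomes, the caspase platforms behind interleukin 1 release and pyroptotic cell death. In the intestine they take part in the epithelial and myeloid response to invading microbes.

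The genes lie in 2 clusters (positions from GENCODE M21 on GRCm38). On the plus strand of chromosome 3 stand, in order, Gbp5 (142493978 to 142522344), Gbp7 (142530342 to 142550149), Gbp3 (142560026 to 142573209), Gbp1 (142594847 to 142619179, named Gbp2b in that annotation) and Gbp2 (142620602 to 142638008). On the minus strand of chromosome 5 are Gbp8 (105014150 to 105139540), Gbp9 (105077630 to 105139539), Gbp10 (105215699 to 105239533), Gbp6 (105270702 to 105293698) and Gbp11 (105323042 to 105346472). Gbp11 is annotated as a polymorphic pseudogene and the other 9 as protein coding. Counts are given per gene.

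The promoters of the chromosome 3 members are shown so that motifs of interferon and NF-kB signalling can be read against their levels. The RefSeq promoter table of GRCm38.p6 matched 5 of the 10 members, with 300-base windows for Gbp1, Gbp2, Gbp5 and Gbp7 and 2 such windows for Gbp3. The promoters of Gbp6, Gbp8, Gbp9, Gbp10 and Gbp11 were not analysed here, so the motif shares say nothing of a difference between the clusters. The interferon-stimulated response element, searched as GAAANNGAA on both strands, was found in 5 of 6 windows (83.3%), against 8.56% of all 32851 windows of the same length. Every match lay on the strand opposite to the gene, so it reads TTCNNTTTC on the gene's own strand. The stretch around the match farthest from the start site in each gene follows, 5′ to 3′ on the plus strand, with the match in capitals.

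Gbp1, chr3:142594691-142594739: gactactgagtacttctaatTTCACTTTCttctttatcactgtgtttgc
Gbp2, chr3:142620585-142620633: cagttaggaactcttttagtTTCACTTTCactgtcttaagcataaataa
Gbp3, chr3:142559980-142560028: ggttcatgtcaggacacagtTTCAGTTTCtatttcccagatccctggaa
Gbp5, chr3:142496750-142496798: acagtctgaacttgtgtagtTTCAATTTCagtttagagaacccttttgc
Gbp7, chr3:142530264-142530312: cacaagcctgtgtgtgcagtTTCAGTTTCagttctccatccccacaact

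The match began 136 bases before the start site in Gbp1, 58 in Gbp2, 44 in Gbp3, 164 in Gbp5 and 52 in Gbp7. Gbp3 held another match 38 bases before its start that overlaps the first by 3 bases, and its other window held none. Gbp1 and Gbp2 shared the same 9 letters, and so did Gbp3 and Gbp7. Gbp5 and Gbp7 also held the gamma-activated site, a motif of interferon gamma responses, searched as TTCNNNGAA, with 2 matches each (2 of 6 windows, 33.3%, against 8.30% of all windows). A kappa B motif, the type of element bound by NF-kB, was found in Gbp5 and Gbp2 (33.3% against 8.46%). A match describes letters in the window and is neither a bound site nor a cause. The whole windows of Gbp5 and Gbp7 are given because they hold the most matches, with every match to the 3 motifs in capitals.

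Gbp5, chr3:142496684-142496983: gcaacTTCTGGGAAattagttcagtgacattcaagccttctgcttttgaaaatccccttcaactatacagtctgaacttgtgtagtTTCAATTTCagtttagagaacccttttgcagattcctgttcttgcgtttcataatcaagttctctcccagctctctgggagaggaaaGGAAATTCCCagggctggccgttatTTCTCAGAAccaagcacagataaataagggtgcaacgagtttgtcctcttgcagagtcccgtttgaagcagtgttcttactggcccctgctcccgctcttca
Gbp7, chr3:142530086-142530385: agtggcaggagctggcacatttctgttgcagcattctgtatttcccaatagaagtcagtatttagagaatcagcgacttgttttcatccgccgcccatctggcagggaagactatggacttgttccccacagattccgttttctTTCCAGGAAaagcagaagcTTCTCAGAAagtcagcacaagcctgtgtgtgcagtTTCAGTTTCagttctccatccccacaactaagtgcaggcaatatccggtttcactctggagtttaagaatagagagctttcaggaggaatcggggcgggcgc

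In Gbp5 the gamma-activated sites began 245 and 52 bases before the start and the kappa B motif 77 bases before it. In Gbp7 the gamma-activated sites began 106 and 87 bases before the start, and the one nearest to it had the same 9 letters, TTCTCAGAA, as the one nearest to the start of Gbp5. The kappa B match of Gbp2 began 7 bases after the start site.

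**Figure D1:**
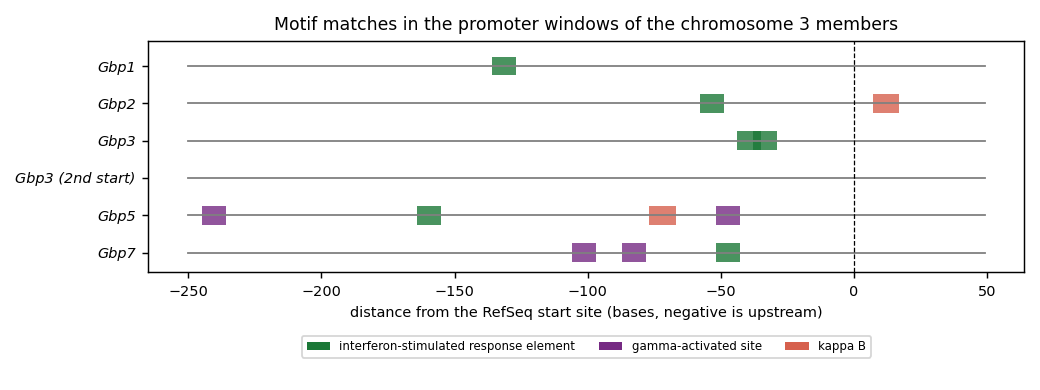
Motif matches in the promoter windows of the chromosome 3 members, with 1 line per window, 1 bar per match, its colour giving the motif, and the distance from the start site in bases on the horizontal axis. Each gene holds an interferon-stimulated response element in at least 1 window, between 164 and 38 bases before the start, while gamma-activated sites appear in Gbp5 and Gbp7.

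Close relatives in the family limit how well some members can be told apart, since the counts keep reads with several matches. Of the 50-base stretches of the longest Gbp10 transcript, 70.6% occur unchanged in a Gbp6 transcript, and 43.8% of those of Gbp6 occur in Gbp10. For the other members the share found anywhere in the family was 19.2% in Gbp11, 18.2% in Gbp8, 8.31% in Gbp9 and 4.79% or less in Gbp1, Gbp2, Gbp3, Gbp5 and Gbp7. The Gbp6 count was 1.85 to 2.36 times the Gbp10 count in all 12 libraries, so values of this pair are uncertain as single genes and their sum is given too. Gbp8 and Gbp9 share 60 exonic bases, and the library kit does not mark strand.

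Library totals ran from 13874091 to 45847467 counts, of which the members held 1580 to 6453 per duodenum library and 7095 to 19735 per spleen library. Although the protocol for extraction mentions brain, the labelled tissues carried their markers. Summed enterocyte markers stood at 29407 to 33550 CPM (counts scaled to library size) in duodenum libraries and at 30.0 to 40.8 in spleen, and B cell markers at 1717 to 2305 in spleen and 8.61 to 11.8 in duodenum. The ribosomal precursor Rn45s held 7.56% and Lars2 0.824% of duodenum isotype 1, with at most 1.18% and 0.0889% elsewhere. Haemoglobin genes held 7.59% to 19.0% of spleen isotype and 15.7% to 28.3% of spleen AC H6 libraries. Amylase 2 genes of the pancreas held 2.13% of duodenum isotype 2, 0.745% of the AC H6 library 2, 8.64% of the AC H6 library 3 and at most 0.0263% of the rest of the duodenum libraries. Values below are CPM with TMM scaling over all 12 libraries, as mean ± SD (n = 3 libraries per group). Log2 fold changes are given ± standard error from the quasi-likelihood test of edgeR, whose p-values were adjusted by Benjamini-Hochberg over all genes tested. A gene was called at an adjusted p under 0.05.

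Without AC H6 the family was mainly a spleen family, with Gbp1 as the exception. The 10 members summed to 403, 416 and 435 CPM in the 3 spleen isotype libraries and to 81.0, 82.6 and 89.8 CPM in the duodenum isotype libraries, so duodenum held 20.2% of the spleen level. In the comparison of duodenum with spleen under isotype, 9 of 10 members were lower, where 43.8% of all genes tested were called lower, and 1 was higher, where 42.2% were. The members' median log2 difference was -2.50, against -0.05 over all genes. Fewer cells of a type and less RNA per cell cannot be told apart in such bulk samples.

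Gbp9 of the chromosome 5 cluster differed most. It had 123, 123 and 130 CPM in the spleen isotype libraries and 6.56, 7.43 and 8.37 CPM in the duodenum ones, a log2 difference of -4.09 ± 0.09 (edgeR adjusted p = 2.21e-09). The other chromosome 5 members were lower in duodenum by log2 differences from -2.41 ± 0.08 in Gbp6 to -3.18 ± 0.21 in Gbp11. On chromosome 3 the difference was smaller in 3 of the 4 members that were lower: -1.26 ± 0.10 in Gbp2, -1.59 ± 0.07 in Gbp7 and -2.02 ± 0.08 in Gbp3, with Gbp5 at -2.73 ± 0.12. The chromosome 3 members together stood at 60.2 ± 3.19 CPM in duodenum and 181 ± 8.19 in spleen, and the chromosome 5 members at 24.3 ± 1.72 and 237 ± 8.21. Differences between the clusters were not tested.

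Gbp1, which in mice has been studied for its recruitment to the Toxoplasma vacuole, was the reverse. Its duodenum isotype libraries had 6.56, 6.81 and 7.15 CPM and its spleen isotype libraries 1.08, 0.737 and 1.33 CPM. The groups did not overlap, and the log2 difference was 2.71 ± 0.20 (edgeR adjusted p = 3.45e-06). The spleen values rest on 19, 31 and 39 counts.

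Members can be compared with each other per length, here per kilobase of all annotated exons of a gene merged. Gbp9 had the highest level in spleen isotype at 24.2 ± 0.777 CPM per kilobase. Gbp3 (15.8 ± 0.677), Gbp2 (15.3 ± 0.757) and Gbp8 (14.1 ± 0.751) followed, each with a range over the libraries that overlapped that of its neighbour. Below them came Gbp7 at 9.89 ± 0.452, Gbp6 at 6.48 ± 0.272, and Gbp5 (5.13 ± 0.548) and Gbp10 (5.08 ± 0.542), which overlapped. Gbp11 (1.95 ± 0.0502) and Gbp1 (0.371 ± 0.105) were lowest. In duodenum isotype the order began with Gbp2 (6.5 ± 0.833), Gbp3 (3.99 ± 0.283), Gbp7 (3.34 ± 0.145) and Gbp1 (2.42 ± 0.105), all of the chromosome 3 cluster. Gbp8 (1.61 ± 0.206), Gbp9 (1.44 ± 0.175) and Gbp6 (1.24 ± 0.0431) overlapped as neighbours, as did Gbp10 (0.859 ± 0.0675) and Gbp5 (0.783 ± 0.0976), and Gbp11 was lowest at 0.223 ± 0.0795. Merged exons can be longer than the transcript in use: those of Gbp5 span 6637 bases and its longest transcript 3756, and those of Gbp6 5954 and 4243. Per kilobase of the longest transcript, Gbp5 stood at 9.06 ± 0.968 in spleen isotype, beside Gbp6 (9.10 ± 0.382) and apart from Gbp10 (5.58 ± 0.595). In duodenum isotype it stood at 1.38 ± 0.172, where its range overlapped that of Gbp9 (1.48 ± 0.179). Gbp3, at 19.3 ± 0.825 in spleen isotype, was then apart from Gbp2.

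**Figure D2:**
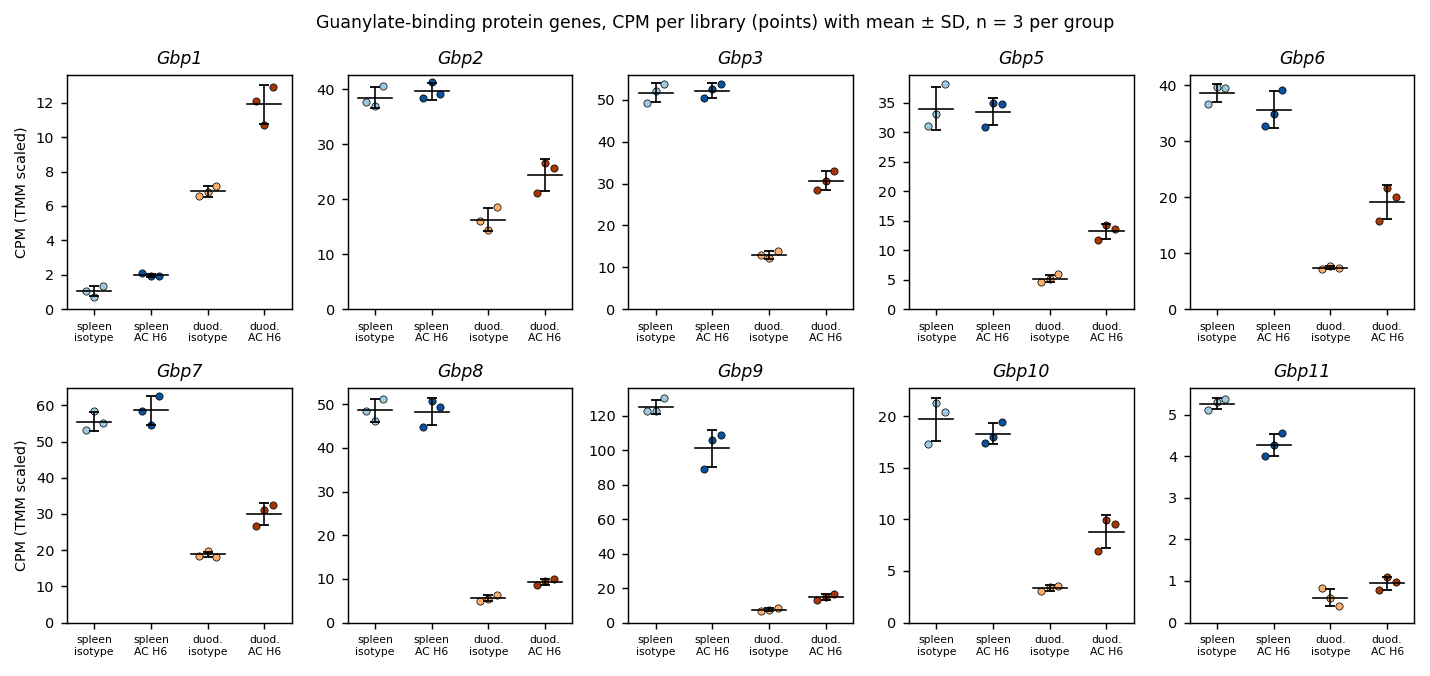
CPM of each member in the 12 libraries, with 1 panel per gene on its own linear axis from 0, 1 point per library, and the mean ± SD of each group. Most members are far higher in spleen than in duodenum, Gbp1 is higher in duodenum, and the duodenum AC H6 points stand above the duodenum isotype points in every member but Gbp11, where they overlap.

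In the duodenum 9 of the 10 members rose after AC H6, by 1.51 to 2.67-fold. Over all genes tested in this comparison 18.5% were called higher and 16.1% lower. The members were chosen with earlier results of these data known, so these shares are given as a description. The median log2 change was 0.91 over the members and 0.01 over all genes. In these 9 members every AC H6 library stood above every isotype library, which held for 23.7% of all genes. Summed over the family, the isotype libraries had 81.0, 82.6 and 89.8 CPM and the AC H6 libraries 145, 170 and 174 CPM, without overlap.

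The fitted rises fell into a higher range, from 1.26 to 1.42 on the log2 scale, and a lower one, from 0.60 to 1.00, with differences between members not tested. Gbp5, which promotes assembly of the NLRP3 inflammasome, had 4.62, 5.08 and 5.90 CPM in the isotype libraries and 11.8, 14.2 and 13.6 CPM in the AC H6 libraries. Its log2 change was 1.36 ± 0.12 (edgeR adjusted p = 1.42e-04). Gbp3 went from 12.9, 12.2 and 14 CPM to 28.4, 30.6 and 33.1 CPM, a log2 change of 1.26 ± 0.08 (edgeR adjusted p = 3.17e-05), the smallest adjusted p among the members. In both genes all AC H6 libraries lay above all isotype libraries.

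Gbp6 of chromosome 5 had 7.13, 7.64 and 7.35 CPM in isotype and 15.7, 21.7 and 20 CPM in AC H6 libraries (log2 1.40 ± 0.13, edgeR adjusted p = 1.48e-04). Its close relative Gbp10 had 3.03, 3.46 and 3.50 CPM against 6.96, 9.93 and 9.51 CPM (log2 1.42 ± 0.16, edgeR adjusted p = 4.78e-04). In both, AC H6 library 1 was the lowest of its group and still above all isotype libraries. Counted as 1 gene, the pair changed by 1.40 ± 0.12 (edgeR adjusted p = 1.33e-04), from 10.7 ± 0.489 to 27.9 ± 4.66 CPM.

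Gbp9 doubled, from 6.56, 7.43 and 8.37 CPM to 12.9, 14.9 and 16.4 CPM (log2 1.00 ± 0.12, edgeR adjusted p = 6.81e-04). Gbp1 went from 6.84 ± 0.296 to 11.9 ± 1.12 CPM (log2 0.82 ± 0.10) and Gbp8 from 5.53 ± 0.708 to 9.32 ± 0.648 CPM (log2 0.77 ± 0.12). Gbp7, described as a partner in placing the phagocyte oxidase on microbes, went from 18.8 ± 0.815 to 30.0 ± 3.10 CPM (log2 0.70 ± 0.08). Adjusted p was 6.58e-04 in Gbp1, 0.00199 in Gbp8 and 6.26e-04 in Gbp7 by edgeR. Library ranges of the groups did not overlap in any of them.

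Gbp2, a prenylated member needed for control of vacuolar parasites and for sensing of cytosolic bacteria, had the smallest fitted change. The isotype libraries had 16.1, 14.4 and 18.6 CPM and the AC H6 libraries 21.1, 26.5 and 25.6 CPM, a log2 change of 0.60 ± 0.12 (edgeR adjusted p = 0.00575). The AC H6 library closest to the isotype range was the first. Gbp11, the pseudogene, was not called: it had 0.821, 0.588 and 0.393 CPM against 0.777, 1.09 and 0.973 CPM, with overlap. Its log2 change was 0.70 ± 0.29 (edgeR adjusted p = 0.0912) on 10 to 36 counts per library. In 1 fit of all 12 libraries it was called, with an adjusted p of 0.0438.

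The order of levels per kilobase moved within the duodenum. After AC H6, Gbp2 (9.69 ± 1.14 CPM per kilobase) and Gbp3 (9.40 ± 0.707) overlapped at the top, where under isotype their ranges had been apart. Gbp7 (5.35 ± 0.552) and Gbp1 (4.2 ± 0.397) followed. Gbp6 (3.22 ± 0.514), Gbp9 (2.85 ± 0.336), Gbp8 (2.71 ± 0.188), Gbp10 (2.27 ± 0.415) and Gbp5 (1.99 ± 0.188) formed a run in which each overlapped the next. Per kilobase of the longest transcript, Gbp3 (11.4 ± 0.861) stood above Gbp2 (9.69 ± 1.14) without overlap, and Gbp6 (4.51 ± 0.721) and Gbp5 (3.51 ± 0.332) stood on either side of Gbp1. The duodenum remained below the spleen of the same treatment in the 9 members that had been lower: it held 41.4% of the spleen level over the whole family, from 14.5% in Gbp9 to 61.5% in Gbp2. Gbp1 was at 600% of the spleen level after AC H6 and at 653% under isotype.

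**Figure D3:**
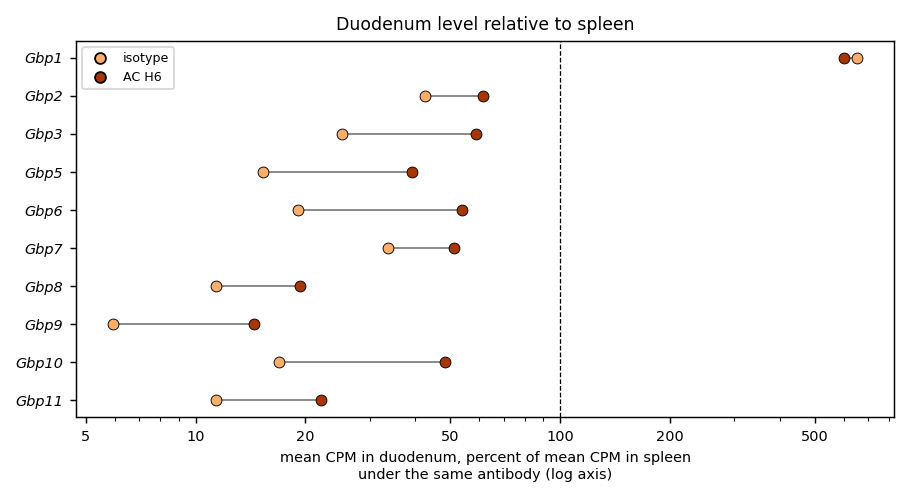
Mean CPM in duodenum as a percent of mean CPM in spleen for each member under isotype and under AC H6, on a log axis, with 1 point per treatment. The 9 members below 100% all stand higher under AC H6 (Gbp3 at 25.2% and 58.8%, Gbp9 at 5.95% and 14.5%), while Gbp1 stands at 653% and 600%.

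In the spleen no member was called by edgeR at 24 hours, where 3.98% of all genes tested were called. Family sums were 403, 416 and 435 CPM under isotype and 368, 399 and 414 CPM under AC H6, with overlap. The members' median log2 change was -0.01, against 0.00 over all genes. At an unadjusted p under 0.05 there were 3 members, Gbp1, Gbp9 and Gbp11. DESeq2 called 2 of them, Gbp1 (adjusted p = 0.0276) and Gbp9 (adjusted p = 0.0210), at a background of 8.88%, limma-voom called 0, and 1 fit of all 12 libraries called Gbp1 (edgeR adjusted p = 0.0131) at a background of 8.35%.

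Gbp1 had 1.08, 0.737 and 1.33 CPM in spleen isotype and 2.09, 1.92 and 1.92 CPM in spleen AC H6 libraries. It was the only member in which every AC H6 library stood above every isotype library, as 15.5% of all genes did, with a log2 difference of 0.95 ± 0.22 (edgeR adjusted p = 0.0591). Gbp9 had 123, 123 and 130 CPM under isotype and 89.0, 106 and 109 CPM under AC H6 (log2 difference -0.30 ± 0.08, edgeR adjusted p = 0.0832). Gbp11 had 5.11, 5.30 and 5.37 CPM against 4.01, 4.28 and 4.55 CPM (log2 difference -0.30 ± 0.10, edgeR adjusted p = 0.111). In these 2 members every AC H6 library stood below every isotype library, which held for 17.2% of all genes.

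The other 7 members had log2 differences from -0.12 to 0.08 in spleen, with standard errors of 0.06 to 0.09. Gbp2 stood at 38.4 ± 1.91 CPM under isotype and 39.6 ± 1.55 under AC H6, Gbp3 at 51.7 ± 2.21 and 52.2 ± 1.72, and Gbp5 at 34.0 ± 3.63 and 33.5 ± 2.25. Gbp7 stood at 55.5 ± 2.54 and 58.6 ± 3.92, Gbp8 at 48.6 ± 2.59 and 48.3 ± 3.14, and the sum of Gbp6 and Gbp10 at 58.3 ± 3.70 and 53.8 ± 4.26. In each of them the libraries of the groups overlapped. The number of genes called in spleen rested on single libraries: it was 608 with all of them and 14 to 1132 with 1 left out, and no member was called in any of these 6 fits.

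**Figure D4:**
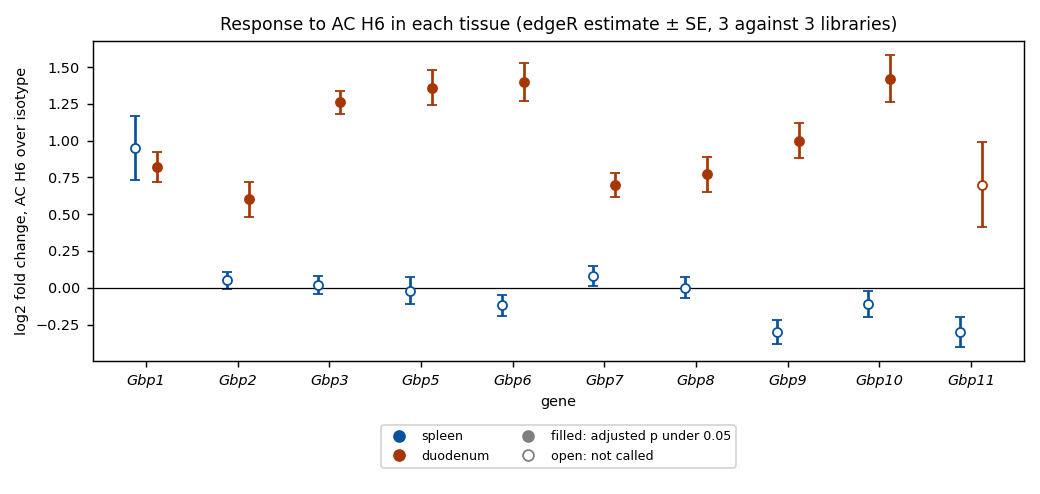
Fitted log2 fold change of AC H6 over isotype for each member in spleen and duodenum, with bars of 1 standard error and filled points for calls at an adjusted p under 0.05. Duodenum values run from 0.60 to 1.42 and are filled in all members but Gbp11, and spleen values of 7 members lie between -0.12 and 0.08.

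The difference between the tissue responses was itself tested, as the interaction of tissue and treatment over all 12 libraries. The response was larger in duodenum in 9 of 10 members, where 10.9% of all genes were called so and 9.13% in the other direction. The members' median was 1.10, against -0.01 over all genes. It was largest in Gbp10 (1.51 ± 0.19, edgeR adjusted p = 2.51e-04) and Gbp6 (1.50 ± 0.15, edgeR adjusted p = 5.95e-05), then Gbp5 (1.36 ± 0.15), Gbp9 (1.29 ± 0.15) and Gbp3 (1.22 ± 0.10). Gbp8 (0.76 ± 0.13), Gbp7 (0.60 ± 0.11) and Gbp2 (0.53 ± 0.14, edgeR adjusted p = 0.0187) were smaller. For Gbp1, whose fitted change was positive in both tissues, the difference was -0.16 ± 0.23 (edgeR adjusted p = 0.670).

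Gbp11 gave 0.98 ± 0.28 (edgeR adjusted p = 0.0285), a call that rested on few counts. It was lost when duodenum isotype 2 or 3, duodenum AC H6 2 or 3, spleen isotype 2 or 3 or spleen AC H6 1 was left out, and with a replicate block, at values of 0.75 to 0.99 in the fits that lost it. Without duodenum isotype 2 and AC H6 3, the libraries richest in amylase 2 of their groups, Gbp2 gave 0.41 (edgeR adjusted p = 0.0856). Without spleen isotype 3 and AC H6 1, the lowest and highest in haemoglobin, it gave 0.48 (edgeR adjusted p = 0.0731). Gbp11 was not called in these fits either, and kept its call in 11 of 22 alternatives. The other 7 calls were made in all alternatives tried.

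Gbp4, which has a row in the tables and is not on the name list, was read after values of the others had been seen. It lies in the chromosome 5 cluster and shares 61 exonic bases with Gbp8. It changed from 9.26 ± 0.257 to 14 ± 1.60 CPM in duodenum (log2 0.62 ± 0.10, edgeR adjusted p = 0.00248) and from 90.2 ± 3.42 to 72.6 ± 2.48 CPM in spleen (log2 -0.31 ± 0.06, edgeR adjusted p = 0.0387).

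The gene lists below were chosen with earlier results of these data known, so their counts beside the share of all genes are descriptions. Of the partners of the Gbps, the immunity-related GTPases moved alongside them in the duodenum. In this tissue 10 of 12 tested rose, 1 fell (Gvin1, a very large GTPase listed with them) and 1 was not called (F830016B08Rik). Their median log2 change was 0.88, and over all genes 18.5% were called higher and 16.1% lower. The 10 hold Tgtp1 with Tgtp2, and 9930111J21Rik1 with 9930111J21Rik2 (each 0.94 ± 0.12). The genes of each pair had similar levels and may share reads, so the 10 may not be separate observations. Tgtp1, whose reads can fall on its near copy Tgtp2, went from 7.85 ± 1.75 to 19.8 ± 0.879 CPM (log2 1.35 ± 0.14). Igtp rose by 0.94 ± 0.11, Irgm2 by 0.82 ± 0.10 and Irgm1, a regulator that keeps the others off the cell's own membranes, by 0.75 ± 0.08 on the log2 scale. In spleen edgeR called 0 of 13 (1 at an unadjusted p under 0.05, 0 by DESeq2 and 0 by limma-voom), with a median of 0.06. Of all genes 3.98% were called there by edgeR. The response was larger in duodenum in 9 of 13 and smaller in 1, Gvin1, against 10.9% and 9.13% of all genes.

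Among genes of interferon signalling, 8 of 19 tested rose in duodenum, 1 fell (Jak2, a receptor kinase gene) and 10 were not called. Their median was 0.18, and over all genes 18.5% were called higher and 16.1% lower. Irf7, a transcription factor of the type I interferon response, rose from 83.1 ± 7.57 to 173 ± 3.60 CPM (log2 1.08 ± 0.08). Socs1, a feedback inhibitor of the receptor kinases, rose by 1.34 ± 0.16 on the log2 scale. Nlrc5 and Ciita, the activators of MHC class I and class II genes, rose by 1.22 ± 0.11 and 0.94 ± 0.09. In spleen edgeR called 0 of 20 (4 at an unadjusted p under 0.05, 1 by DESeq2 and 0 by limma-voom), against 3.98% of all genes by edgeR. Irf7 there had a log2 difference of 0.70 ± 0.17 (edgeR adjusted p = 0.0606). The interferon gamma gene itself, Ifng, stood at 0.797 ± 0.193 CPM in spleen isotype and 0.545 ± 0.0179 in spleen AC H6 libraries (71 and 65 counts, with the AC H6 group sequenced deeper), a log2 difference of -0.54 ± 0.23 (edgeR adjusted p = 0.178). It had 1 and 4 counts in duodenum, while Ifnb1 was listed at 0 counts in all 12 libraries.

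The interferon gamma targets that are not GTPases were also listed with earlier results of these data known. Of these targets 14 of 15 rose in duodenum, against 18.5% of all genes. Their median was 0.89, and 1, the immunoproteasome gene Psmb10, was not called. Ubd, a ubiquitin-like modifier, went from 0.341 ± 0.0262 to 23.1 ± 0.866 CPM (log2 6.10 ± 0.12), far more than any member of the family. The chemokine gene Cxcl10 rose by 2.65 ± 0.12, the serpin gene Serpina3g by 1.68 ± 0.09 and Cd74, the MHC class II chaperone, by 0.89 ± 0.06. In spleen 1 of 13 rose (Cxcl10, 0.76 ± 0.09), 2 fell (Ubd, -1.03 ± 0.20, and Cxcl9) and 10 were not called. Of the 13, 6 had an unadjusted p under 0.05. DESeq2 called 1 higher and 4 lower, at a background of 8.88% in either direction, and limma-voom 1 higher and 2 lower. Over all genes 2.06% were called higher and 1.92% lower in spleen. The response was larger in duodenum for 11 of 15, against 10.9% of all genes.

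Of 12 inflammasome genes 3 rose in duodenum, 1 fell and 8 were not called, with a median of 0.08. These counts were near the background of 18.5% higher and 16.1% lower, so they are no result about the list, and its genes are given singly. Casp4, which encodes caspase-11, the sensor of cytosolic lipopolysaccharide that acts on bacteria opened by Gbps, rose from 9.57 ± 0.437 to 21.5 ± 1.38 CPM (log2 1.19 ± 0.08). Nlrp3 and Mefv, sensor genes of myeloid cells, rose by 1.02 ± 0.20 and 0.91 ± 0.19. Pycard, the adaptor ASC, fell from 121 ± 5.60 to 76.3 ± 1.77 CPM (log2 -0.64 ± 0.06). In spleen 1 of 12 rose, the cytokine gene Il1b, where 2.06% of all genes were called higher. There 5 of the 12 had an unadjusted p under 0.05. DESeq2 called 1 higher and 1 lower, and limma-voom 1 higher and 0 lower.

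Of 12 genes of Atg8 conjugation none rose in duodenum by edgeR, 2 fell and 10 were not called, with a median of -0.07. The share that fell was close to the 16.1% of all genes. The 2 that fell were Atg12 (-0.24 ± 0.06) and Atg5 (-0.16 ± 0.04), parts of the conjugation enzyme. In this tissue 4 had an unadjusted p under 0.05, and DESeq2 called 0 higher and 2 lower, limma-voom 0 higher and 3 lower. In spleen edgeR called 0 of 12, where it called 3.98% of all genes. Of the 12, 4 had an unadjusted p under 0.05, and 1 was called by DESeq2 and 0 by limma-voom. The response was smaller in duodenum for 4 of 12, Gabarapl2 (-0.62 ± 0.15), Atg12 (-0.33 ± 0.09), Atg5 (-0.30 ± 0.08) and Atg3 (-0.29 ± 0.09). Over all genes 9.13% were called so.

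**Figure D5:**
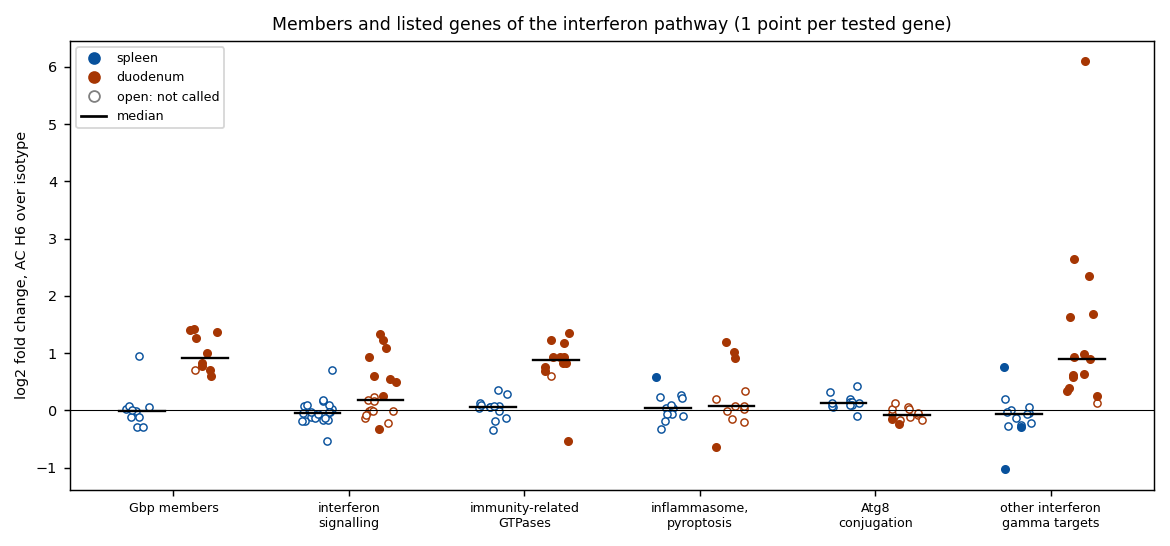
Fitted log2 fold change of AC H6 over isotype for the family and the genes of 5 pathway lists, in spleen and duodenum, with 1 point per gene, filled where called, and a bar at the median of each list. Duodenum medians stand at 0.91 for the family, 0.88 for immunity-related GTPases and 0.89 for other interferon gamma targets, against 0.18, 0.08 and -0.07 for signalling, inflammasome and Atg8 conjugation genes.

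Macrophage markers moved with the family in the duodenum. All 7 macrophage markers tested rose, with a median log2 change of 1.00, where 18.5% of all genes were called higher and 16.1% lower. They were Csf1r, Emr1, C1qa, C1qb, C1qc, Cd68 and Vcam1, from 0.49 ± 0.08 in Emr1 to 1.22 ± 0.06 in Vcam1. Their summed level went from 199 to 210 CPM under isotype to 365 to 388 CPM under AC H6. Of the neutrophil markers 4 of 6 tested rose (summed 50.8 to 55.6 against 93.8 to 110 CPM), at the same background of 18.5%. Most of that sum was Mmp9 (26.9 ± 3.32 against 64.4 ± 8.27 CPM) together with Ltf (23.2 ± 5.41 against 30.8 ± 5.4 CPM). S100a8 and S100a9 stood at 0.949 and 1.07 CPM after AC H6, and Ngp and Ltf were not called. Of the T cell markers 3 of 7 rose, Cd3e, Cd4 and Lck, and of the NK cell markers 1 of 5, Prf1, at the background of 18.5%. The whole T cell list summed to 40.4 to 43.8 CPM under isotype and 49.7 to 51.7 under AC H6. The whole NK cell list summed to 54.0 to 58.3 and 57.8 to 61.6 CPM, with overlap. Most of the NK cell sum was Gzma (51.4 ± 2.25 and 53.9 ± 1.52 CPM), which was not called. Summed B cell markers stood at 8.61 to 10.3 and 10.2 to 11.8 CPM, with overlap. Of the endothelial markers 2 of 4 rose, Pecam1 and Cdh5, again at a background of 18.5%. All 4 summed to 119 to 140 CPM under isotype and 141 to 147 under AC H6. Of the enterocyte markers 5 fell and 2 rose, Apoa1 and Apoa4. The whole enterocyte list summed to 32474 to 33550 CPM under isotype and 29407 to 30999 under AC H6. No marker with a row was at 0 in a group, and the part of these cells in the family's rise was not tested.

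In spleen, where no listed member was called by edgeR, all 8 neutrophil markers rose (summed 480 to 748 against 1461 to 2102 CPM). So did 4 of 7 macrophage markers, Csf1r, C1qa, C1qb and C1qc (all 7 summed 1312 to 1448 against 1666 to 1809 CPM). Of all genes tested in spleen 2.06% were called higher. Summed T cell markers stood at 452 to 521 CPM under isotype and 367 to 409 under AC H6, and B cell markers at 2158 to 2305 and 1717 to 1938. Of the T cell markers 1 of 7 fell, Cd3e, where 1.92% of all genes were called lower. The part of these cells in the spleen values was not tested. The acinar marker score as a covariate left 9 members called in duodenum, as did leaving out the libraries richest in amylase 2. In spleen, the erythroid score as a covariate and leaving out the libraries of lowest and highest haemoglobin share each left 0 called.

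The genes outside the family whose levels followed it most closely were sought among 10971 genes, by the mean over both tissues of Pearson's r with the members' mean log2 CPM over the 6 libraries of a tissue. The most alike was Ifi205, an interferon-inducible gene of the p200 family, with r of 0.96 in spleen and 0.99 in duodenum, where it rose by 1.77 ± 0.10. Slfn2, a Schlafen family gene, had r of 0.89 and 1.00 and rose by 0.98 ± 0.09 in duodenum, and Csf1, the macrophage growth factor gene, had r of 0.88 and 0.99 and rose by 1.21 ± 0.06. Kit (0.90 and 0.99), Nbea (0.89 and 0.99) and Epn2 (0.91 and 0.97) rose by 0.57 ± 0.06, 0.76 ± 0.07 and 0.74 ± 0.06. All 6 had log2 differences of 0.01 to 0.11 in spleen and were not called there. These r values are descriptions: the points of a tissue are the same 6 libraries for every gene, with their depth, composition and group difference in common.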

How the data were processed

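Per the labels' protocols, RNA was taken with Trizol, cleaned on columns and made into libraries with a kit that does not mark strand. The tools named in the submitters' processing notes are bcl2fastq 2.19, Trimmomatic, STAR 2.3 and edgeR, and the build is mm10. How reads were counted, and on which annotation, is not given in the sources used here. Each library has a deposited table of raw read counts per gene, in whole numbers. Per the file headers, these counts keep reads with several matches.

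In R 4.3.3 the counts were filtered with filterByExpr and scaled to CPM by TMM in edgeR 4.0.16. Its quasi-likelihood F-test was fitted without covariates on the 6 libraries of a tissue, on the 6 isotype libraries for the tissue difference, and on all 12 for the interaction. Benjamini-Hochberg adjustment ran over all genes tested. The standard error is the log2 fold change divided by the square root of F. The fits were tested on simulated data. Libraries of a group differed by more than sampling noise. The row Gbp1 was matched to Gbp2b through a RefSeq synonym.

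The members and lists were chosen with earlier results of these data known. All members were named, and of each other list the 4 genes of smallest p. Genes behind small counts, single markers and pairs of similar genes were named after their values were seen. The 6 genes most like the family were named too (log2 CPM with a prior count of 2, mean of at least 1). Alternatives were DESeq2 1.42.0, limma-voom (limma 3.58.1), DESeq2-style size factors, no filter or a stricter filter on low counts (10 counts in every library of a group), library sizes without abundant transcripts, a replicate block, 1 fit of all libraries, marker scores as covariates and each library left out. Leaving out pairs of libraries, summing Gbp6 with Gbp10 and pairing the tissues were added after seeing the data.

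The labels number libraries 1 to 3 in each group and do not say that a number marks an animal. Deviations of same-numbered libraries correlated at 0.19, 0.35 and 0.11 between spleen and duodenum under isotype, which by the rule used counts as paired, and at 0.13, 0.32 and 0.09 over the genes of the interaction, which does not. A replicate block left all 10 members called in that comparison either way.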

Additional observations from a re-analysis of the deposited data

Results flagged for a closer look

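The response to AC H6 differed between duodenum and spleen, by the interaction test of edgeR, in 9 members. The log2 difference of the responses, duodenum minus spleen, was 0.53 in Gbp2, 1.22 in Gbp3, 1.36 in Gbp5, 1.50 in Gbp6, 0.60 in Gbp7, 0.76 in Gbp8, 1.29 in Gbp9, 1.51 in Gbp10 and 0.98 in Gbp11. None of the 9 was called in spleen by edgeR, where Gbp9 and Gbp11 had an unadjusted p under 0.05, DESeq2 called Gbp9 and limma-voom 0.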

How the results depend on the processing

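In duodenum the 9 calls were made in every alternative in which those members had a row of their own, 10 members were called in 1 fit of all 12 libraries, and 8 of 9 rows were called with Gbp6 and Gbp10 summed. In spleen the count of 0 became 2 with DESeq2 and 1 in the fit of all 12 libraries, and was 0 in the other alternatives. The interaction count of 9 ran from 8 to 9 with 1 library left out and was 7 without the amylase-rich pair or the pair of extreme haemoglobin share. All 10 members kept their tissue calls throughout. With the replicate block the members called were 0 in spleen, 9 in duodenum, 10 between tissues and 8 in the interaction, both within and across tissues. Same-numbered libraries of a tissue did not deviate together (r of 0.27, -0.13 and -0.03 in spleen, and 0.40, 0.24 and -0.20 in duodenum). Uncalled values near 0 changed sign between alternatives in Gbp3 (-0.02 to 0.07), Gbp5 (-0.08 to 0.13) and Gbp8 (-0.04 to 0.12) in spleen and in Gbp1 in the interaction (-0.39 to 0.10). No called value changed sign. Over all genes, the 608 spleen calls became 1 with the replicate block, 1356 with DESeq2, 1390 in the fit of all libraries, 108 with the erythroid score and 88 without the haemoglobin pair. With 1 spleen library left out they were 14, 68 and 104 without isotype 1, 2 and 3, and 76, 1132 and 30 without AC H6 1, 2 and 3. The interaction calls over all genes fell from 3331 to 2169 without the haemoglobin pair. The causes were not tested. Low counts limit Gbp11 in duodenum and Gbp1 in spleen, and 3 libraries per group limit all tests.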
